A study of Drosophila melanogaster with 12 samples.

Results

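The transcriptional effect of the *Gpdh1; Ldh* double mutant genotype was compared, gene by gene, with the effect of the *Gpdh1* mutant genotype in whole *Drosophila* larvae, using 12 of the 12 libraries of the series. The 4 genotypes were sequenced with 3 libraries each, all in a w[1118] background: *Gpdh1* heterozygotes (Gpdh1[12]/+), *Gpdh1* mutants (Gpdh1[12]/[14]), double heterozygotes (Gpdh1[12]/+ with Ldh[16]/+) and double mutants (Gpdh1[12]/[14] with Ldh[16]/[17]). All 4 groups therefore carry at least 1 mutant copy of *Gpdh1*, and the controls of the double mutants carry 1 mutant copy of *Ldh*. Larvae were collected after 60 h of growth at 25 °C, each library holds a pool of whole larvae, and the labels call the stage mid-L3 while the study's text calls it mid-L2 and names other *Gpdh1* alleles. The double mutant effect is the log2 ratio of double mutants over double heterozygotes, the *Gpdh1* mutant effect is the log2 ratio of *Gpdh1* mutants over *Gpdh1* heterozygotes, and the difference reported here is the first minus the second. A gene with a positive difference is called higher, and one with a negative difference lower. The same number is also the double mutants over the *Gpdh1* mutants minus the double heterozygotes over the *Gpdh1* heterozygotes, so that each of the 4 group levels can drive it. *Ldh* single mutants were not analysed here, so the effect of losing *Ldh* alone cannot be told apart from a *Gpdh1* effect that depends on *Ldh*.

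Growing larvae run a glycolysis that turns much of their sugar into lactate and glycerol-3-phosphate. Lactate dehydrogenase, the product of *Ldh*, and glycerol-3-phosphate dehydrogenase, the product of *Gpdh1*, each oxidise NADH in the cytosol and so return the NAD+ that glycolysis needs, and Gpdh1 also supplies the backbone of triglycerides. A larva moults between instars under pulses of the steroid ecdysone, and at each moult the epidermis secretes a new cuticle in a fixed order of gene programmes.

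The libraries held between 22339930 and 26605495 counts assigned to genes. The spread between replicates differed by genotype, with a biological coefficient of variation of 0.0374 for double mutants, 0.0995 for *Gpdh1* mutants, 0.141 for *Gpdh1* heterozygotes and 0.212 for double heterozygotes. Double mutant replicates 1 and 2 differed by about sampling noise at the median gene (chi-square per degree of freedom 0.63, mean 2.51 over genes). Replicate 3 gave medians of 0.96 and 0.99 against replicates 1 and 2, with higher means of 12.8 and 10.4. Because of this small spread, counts of calls are also given with the double mutant libraries summed. Nothing in the labels says whether replicates came from separate crosses, so the p-values measure the spread between these libraries. Among double heterozygotes, replicate 2 differed from the others at the median gene, with cuticle and Osiris genes among those affected. Its median chi-square per degree of freedom was 3.72 against replicate 1 and 4.78 against replicate 3, and that between replicates 1 and 3 was 1.28. Values without replicate 2 are given where the call of a gene named here is gained or lost or the count of a list moves by over 1.5 times. In CPM (counts scaled to library size, with TMM factors), *Ldh* was at 511, 495 and 521 CPM in *Gpdh1* heterozygotes, 379, 405 and 414 in *Gpdh1* mutants, 445, 439 and 457 in double heterozygotes and 3.95, 3.6 and 4.24 in double mutants. Its loss was thus seen in each of the 3 double mutant libraries and nowhere else. *Gpdh1*, whose exons meet those of an antisense noncoding gene, was at 520.3, 517 and 412 CPM in *Gpdh1* heterozygotes, 232, 288 and 285 in *Gpdh1* mutants, 497, 445 and 506 in double heterozygotes and 61.9, 61.6 and 60.8 in double mutants. The transcript was lower in both mutants, and lower in double mutants than in *Gpdh1* mutants although the labels name the same *Gpdh1* alleles, giving a difference of -2.13 (standard error 0.151, adjusted p = 1.9e-05). Differences between stocks other than the named alleles cannot be told apart from *Ldh*. Serum storage proteins, which the fat body makes in the last larval instar, summed to 3421 to 8466 CPM in *Gpdh1* heterozygotes, 38.6 to 141 in *Gpdh1* mutants, 569 to 4044 in double heterozygotes and 16.7 to 17.6 in double mutants over 5 tested genes, of which none passed the test of the difference (1 lower without replicate 2). This sum is carried by *Lsp1beta*, *Lsp1gamma* and *Lsp1alpha*, which were lower in both mutants, while *Fbp1*, a gene of the same list at means of 0.0467, 1.34, 0.0535 and 3.77 CPM, was higher in both. The summed level differed between mutants and controls and between the 2 control groups, and the part of developmental age in the results below was not tested. In whole larvae, a smaller share of a tissue and less RNA per cell cannot be told apart.

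In 1 fit over the 12 libraries, 10880 genes were tested, and a gene was called at an adjusted p under 0.05 with a difference beyond 1 on the log2 scale. The mutant effect was higher in double mutants for 467 genes (4.29% of those tested) and lower for 364 genes (3.35%). Without the limit on size, 1307 genes were higher (12.0%) and 1474 lower (13.5%), and the median difference of all genes was -0.00877, close to 0. The double mutant effect alone was called higher for 733 genes (6.74%) and lower for 467 (4.29%), and the *Gpdh1* mutant effect alone higher for 429 (3.94%) and lower for 434 (3.99%). Of the 467 genes with a higher difference, 150 were themselves called higher in double mutants than in their control with no call in *Gpdh1* mutants, 132 were called lower in *Gpdh1* mutants with no call in double mutants, and 67 were called in opposite directions by both mutants, lower in *Gpdh1* and higher in double mutants. Another 28 were called higher in both mutants and 7 lower in both, so that they differed in size only, and 83 passed in neither. Of the 364 lower genes, 171 were called lower in double mutants alone, 54 higher in *Gpdh1* mutants alone and 13 in opposite directions, while 9 were called lower and 4 higher in both and 113 passed in neither. Summing the 3 double mutant libraries into 1, since they varied so little, left 302 higher and 193 lower genes, and leaving out double heterozygote replicate 2 gave 457 higher and 489 lower genes. Of the 831 called genes, 15 had no more than 3 counts over the 3 libraries of some group, and their fitted differences are not read as sizes.

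**Figure D1:**
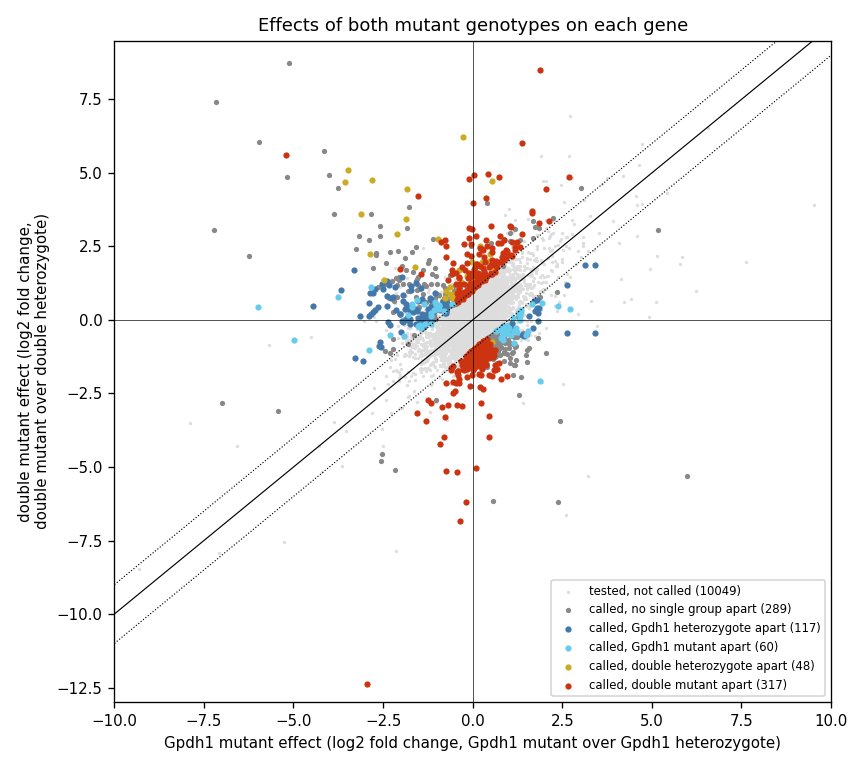
Each point is 1 of the 10880 genes tested, with the *Gpdh1* mutant effect on the x axis and the double mutant effect on the y axis, both as fitted log2 fold changes. The solid line marks equal effects and the dotted lines a difference of 1, and colours mark the 831 called genes by the group that stands apart. Red points, the 317 genes with double mutants apart, mostly lie along the vertical axis, while blue points, the 117 genes with *Gpdh1* heterozygotes apart, mostly lie along the horizontal axis.

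To find which level drives each difference, a group was said to stand apart when its mean log2 CPM lay farther from the nearest other group than the other 3 groups lay from each other. Double mutants stood apart for 317 of the 831 called genes (38.1%, against 21.4% of all genes tested), below the other groups for 171 and above them for 146. *Gpdh1* heterozygotes stood apart for 117 (14.1%, against 11.2%), above for 92 and below for 25. *Gpdh1* mutants stood apart for 60 (7.22%, against 8.24%), above for 33 and below for 27, and double heterozygotes for 48 (5.78%, against 8.57%), above for 3 and below for 45. In 169 of the 171 and 142 of the 146 genes the 3 double mutant libraries lay outside the range of the other 9 libraries, as they did below for 13.1% and above for 16.0% of all genes tested, and the choice of these genes by their group means largely sets these counts. For the remaining 289 genes (34.8%, against 50.5%) no single group stood apart. Among these, the lower genes were most often highest in *Gpdh1* mutants and lowest in double mutants (65 genes), and the higher genes most often highest in *Gpdh1* heterozygotes and lowest in double heterozygotes (56 genes). Without double heterozygote replicate 2, the genes with double mutants apart and below rose in number to 312, and those with double heterozygotes apart and below fell to 27, and this replicate was the lowest of the 12 libraries for 28 of those 45 genes. The double mutants were thus the group most often apart, and the 2 control groups set a further 165 of the differences.

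**Figure D2:**
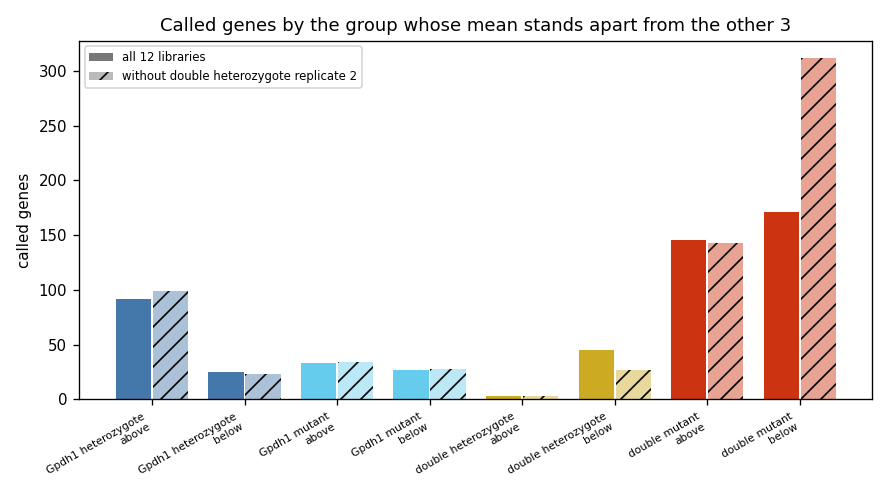
Bars count the called genes, on the y axis, for which the mean of the group named under each bar lies above or below the other 3 group means, with all 12 libraries (solid) and without double heterozygote replicate 2 (hatched). The largest classes are double mutants below (171, and 312 without that replicate) and above (146 and 143).

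The lower genes with double mutants apart included 2 neighbouring alkaline phosphatase genes, enzymes that cleave phosphate esters at the cell surface. *Alp7* (2R:22203694-22205593 in BDGP6.54) was at 114, 161 and 108 CPM in *Gpdh1* heterozygotes, 12.5, 25.5 and 11.9 in *Gpdh1* mutants, 168, 108 and 177 in double heterozygotes and 0.0359, 0.0353 and 0 in double mutants. Double mutants held 2 counts of *Alp7* in all against 11000 in double heterozygotes, a level 6390-fold lower (95% counting interval 1769 to 52775), and *Gpdh1* mutants were also below their control, so the libraries of both mutants lay under all 6 control libraries. *Alp8* (2R:22208464-22210765), its neighbour, was at 30.3, 40.8 and 35.4 CPM in *Gpdh1* heterozygotes, 31.1, 34.6 and 27.5 in *Gpdh1* mutants, 55.3, 60.3 and 61.3 in double heterozygotes and 1.04, 0.671 and 0.713 in double mutants, a difference of -5.99 (standard error 0.213, adjusted p = 8.32e-08). The 9 other libraries held at least 27.5 CPM of *Alp8*, and only double mutants lost it. Other members of the family went the opposite way: *Alp9* had means of 16.9, 39.8, 28.8 and 179.6 CPM in the 4 groups in the order given above (difference 1.40), *Alp10* of 31.4, 61.4, 42.6 and 216 (1.37), *Alp12* of 14.4, 15.8, 15.4 and 41.2 (1.28) and *Alp13* of 1.89, 1.39, 1.91 and 3.61 (1.35). Of 11 alkaline phosphatases tested, 4 were higher and 3 lower at an adjusted p under 0.05, with double mutants apart in each of the 7.

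A cluster of genes on arm 3R held a second set of lower genes. RefSeq gives these genes synonyms of the form Dro with a number, and 44 such genes were tested across the genome, a set chosen after its values were seen. *CG11892* (3R:25281548-25283237) was at 338, 317 and 269 CPM in *Gpdh1* heterozygotes, 257, 229.6 and 199 in *Gpdh1* mutants, 182, 182 and 191 in double heterozygotes and 6.14, 4.16 and 4.99 in double mutants, a difference of -4.75 (standard error 0.20, adjusted p = 3.55e-07). *CG10514*, close beside it, was at 247, 251 and 261 CPM in *Gpdh1* heterozygotes, 171, 153 and 132 in *Gpdh1* mutants, 141, 105 and 106 in double heterozygotes and 3.77, 3.0 and 3.12 in double mutants, a difference of -4.41 (standard error 0.195, adjusted p = 4.74e-07). For both genes double mutants held a few CPM where every other library held over 100. *CG31097* (-3.07) and *CG13658* (-2.29) in the same cluster were likewise lowest in double mutants, at means of 0.527 ± 0.0743 CPM and 1.81 ± 0.373 CPM (SD, n = 3), against 3.77 ± 0.178 CPM and 5.9 ± 0.74 CPM in double heterozygotes. Genes between them behaved otherwise, since *CG31104* was higher in double mutants (1.0, adjusted p = 0.0356, and 0.0562 without replicate 2 of the double heterozygotes) and *CG11893* was higher in both mutants, by 4.59 and 3.92, with a difference that missed the threshold (-0.67, adjusted p = 0.103). Of the 44 genes, 6 were higher and 16 lower at an adjusted p under 0.05, against 12.0% and 13.5% of all genes. Their median difference was -0.32. Close by, *tobi*, an alpha-glucosidase gene known to respond to insulin and glucagon-like signals, was at 68.8, 34.9 and 42.8 CPM in *Gpdh1* heterozygotes, 48, 88.2 and 63.7 in *Gpdh1* mutants, 27.5, 18.6 and 27 in double heterozygotes and 1.04, 1.87 and 1.66 in double mutants, a difference of -4.44 (standard error 0.461, adjusted p = 0.000162). Its exons overlap those of *rha* on the other strand, which was itself at means of 0.323, 0.35, 0.247 and 0.401 CPM in the 4 groups. *Jon44E*, a Jonah protease of the gut whose exons overlap *CG8586*, was lowest in double mutants too, at 11.7 ± 0.408 CPM against 58.9 ± 13.6 CPM in double heterozygotes (difference -2.63).

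Osiris genes, a tandem family on 3R that epidermal and tracheal cells express while they form new cuticle, were the list with the largest share of lower members. Of 16 tested, 9 were lower and none was higher, each of the 9 past the limit on size, with a median difference of -1.26 against -0.00877 over all genes. *Osi15* was at 1648, 1450 and 1580 CPM in *Gpdh1* heterozygotes, 1459, 1566 and 1508 in *Gpdh1* mutants, 1797, 992 and 1770 in double heterozygotes and 529, 543 and 561 in double mutants, a difference of -1.44 (standard error 0.249, adjusted p = 0.00232). *Osi7*, among the most abundant members, was at 2245, 2635 and 2600 CPM in *Gpdh1* heterozygotes, 2015, 2740 and 2023 in *Gpdh1* mutants, 3384, 1288 and 2747 in double heterozygotes and 983, 1016 and 943 in double mutants, a difference of -1.19 (standard error 0.383, adjusted p = 0.0425). In both genes the double mutant libraries were the lowest of the 12, and among double heterozygotes replicate 2 held the lowest value by a wide gap. Double mutants stood apart in 8 of the 9, and leaving out replicate 2 raised the number of lower members to 14. The *Gpdh1* mutant effect on *Osi7* was -0.14 and on *Osi15* -0.05, and the double mutant effect -1.33 and -1.48. The family summed to 12916 to 13059 CPM in *Gpdh1* heterozygotes, 10443 to 13019 in *Gpdh1* mutants, 5606 to 14333 in double heterozygotes and 4156 to 4175 in double mutants.

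Some ecdysone-inducible genes were also lower. *ImpE1*, an ecdysone-inducible gene first found in imaginal discs, was at 359.7, 402 and 405 CPM in *Gpdh1* heterozygotes, 328, 485 and 349 in *Gpdh1* mutants, 555, 212 and 423 in double heterozygotes and 148, 151 and 135 in double mutants, a difference of -1.45 (standard error 0.387, adjusted p = 0.0198). *ImpL1*, a second such gene, was at 762, 713 and 823 CPM in *Gpdh1* heterozygotes, 771, 885 and 718 in *Gpdh1* mutants, 1199, 711 and 906 in double heterozygotes and 412, 419 and 402 in double mutants, a difference of -1.24 (standard error 0.219, adjusted p = 0.0025). *Hr4*, a nuclear receptor of the ecdysone cascade, was at 59.3, 64.3 and 67.3 CPM in *Gpdh1* heterozygotes, 72.5, 77.9 and 74 in *Gpdh1* mutants, 76.9, 70.4 and 69.1 in double heterozygotes and 37.2, 34.9 and 35.3 in double mutants, a difference of -1.24 (standard error 0.0869, adjusted p = 1.79e-05), which had the smallest spread of the 3 and little change without replicate 2 (-1.26), although its exons overlap *PIG-K* on the other strand. For all 3 genes double mutants lay below every other library, while replicate 2 was the lowest double heterozygote for *ImpE1* and *ImpL1*, and the *Gpdh1* mutant effects were -0.01, 0.05 and 0.23. *Eip78C* was lower too (-0.79, adjusted p = 0.0111), while *ImpE3* was lower with double heterozygotes as the high group, at means of 10.9, 15.9, 27.1 and 16 CPM in the 4 groups (difference -1.30, and -0.91 without replicate 2). In all, 5 of 17 ecdysone response genes tested were lower and none was higher (7 lower without replicate 2), with a median of -0.54. Over all genes, 13.5% were lower and 12.0% higher. Of 10 ecdysone synthesis genes tested only *Npc1a*, a sterol transporter, passed (-0.35), against 3 lower without replicate 2. The synthesis list does not cover *phm*, *nvd*, *torso* and *EcI*, whose symbols found no match.

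Proteins with a zona pellucida domain form the apical matrix under which the cuticle and its denticles are shaped, and were listed after their values had been seen. Of 13 tested, 7 were lower, all past the limit on size, and none was higher (9 lower and 1 higher without replicate 2), with a median of -1.08. The levels behind these differences were of 2 kinds. *neo* was at 179, 223 and 300.4 CPM in *Gpdh1* heterozygotes, 569, 515 and 457 in *Gpdh1* mutants, 425, 536 and 314 in double heterozygotes and 234, 241 and 252 in double mutants, a difference of -1.94 (standard error 0.289, adjusted p = 0.000993). Here *Gpdh1* mutants exceeded their control and double mutants fell below theirs, and the double mutants ended near the level of *Gpdh1* heterozygotes. *tyn* (-1.56), *mey* (-1.49) and *dy* (-1.86) were likewise highest in *Gpdh1* mutants and next in double heterozygotes, with means of 204, 369.6, 287 and 176 CPM, 25.9, 47.2, 42.5 and 27.7 CPM and 23.6, 36.6, 35 and 14.9 CPM. *m*, *nyo* and *cyr* were instead lowest in double mutants by a gap, at 26.8 ± 1.98 CPM, 84.8 ± 1.06 CPM and 2.06 ± 0.483 CPM against 69.1 ± 14.7 CPM, 202 ± 52.4 CPM and 5.5 ± 1.62 CPM in double heterozygotes (SD, n = 3). Outside this family, *sha*, needed for the shape of epidermal denticles, and the serine protease homolog *mas* were high in the same 2 groups: *sha* had means of 12.1, 27.2, 30.8 and 10.6 CPM (-2.71) and *mas* of 72.4, 155, 142 and 65.8 CPM (-2.21), both chosen after their values were seen.

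Of 14 carbohydrate digestion genes tested, 7 were higher and only *tobi* was lower (2 lower without double heterozygote replicate 2), with a median of 0.75. *Mal-A6*, a maltase gene, was at 54, 18.8 and 31.8 CPM in *Gpdh1* heterozygotes, 69.2, 84.7 and 82.1 in *Gpdh1* mutants, 67.3, 71.7 and 66.2 in double heterozygotes and 379.8, 378 and 397 in double mutants, a difference of 1.32 (standard error 0.384, adjusted p = 0.0286). It rose in *Gpdh1* mutants (1.17) and more in double mutants (2.49), whose 3 libraries stood several fold above the other 9. *Mal-A7*, its neighbour, had a larger difference of 2.40 (standard error 0.428, adjusted p = 0.00265), with means of 1.15, 4.82, 1.09 and 24 CPM, and *Mal-A4* (1.33) and *Mal-A8* (1.16, adjusted p = 0.0499, and 0.0505 without replicate 2) of the same cluster were called as well. Of 31 gut proteases tested, 10 were higher and *Jon44E* was lower, with a median of 0.51. *alphaTry*, a trypsin gene with close copies beside it, was at 33.6, 29.3 and 23 CPM in *Gpdh1* heterozygotes, 42.4, 44.6 and 53.3 in *Gpdh1* mutants, 34.1, 40.5 and 34.3 in double heterozygotes and 219.9, 220.2 and 229 in double mutants, a difference of 1.91 (standard error 0.184, adjusted p = 0.00011). *Jon74E* had means of 43.3, 91.9, 118 and 743 CPM (1.57) and *Phae2* of 9.87, 10.7, 13 and 48.3 CPM (1.78), each highest in double mutants. *Try29F* belongs to the list but to another pattern, since it was high in *Gpdh1* heterozygotes alone.

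A lipase rose in double mutants alone. *mag*, a lipase and cholesterol esterase that the gut secretes, was at 34.9, 13.9 and 15 CPM in *Gpdh1* heterozygotes, 12.5, 12.6 and 12.9 in *Gpdh1* mutants, 25.1, 16.8 and 28.5 in double heterozygotes and 135, 136 and 134 in double mutants, a difference of 3.28 (standard error 0.434, adjusted p = 0.00054). The *Gpdh1* mutant effect was -0.75 and missed the threshold (adjusted p = 0.076), and the double mutant effect was 2.52. *Lip3*, another lipase and one known to rise on starvation, had means of 2.93, 3.31, 3.02 and 14.3 CPM (2.09), with exons that overlap *CheA87a* on the other strand. Several genes without a name rose in double mutants from almost nothing. *CG17283* (3R:17407876-17409460) was at 0.18, 4.18 and 0.987 CPM in *Gpdh1* heterozygotes, 0.974, 1.73 and 2.59 in *Gpdh1* mutants, 0.705, 0.609 and 0.215 in double heterozygotes and 15.4, 15.9 and 16.5 in double mutants, a difference of 4.90 (standard error 1.02, adjusted p = 0.0057), and *CG14499* (2R:18187707-18188573) at 0.27, 0.101 and 0 CPM in *Gpdh1* heterozygotes, 0.0424, 0.0412 and 0.259 in *Gpdh1* mutants, 0.0415, 0.152 and 0.129 in double heterozygotes and 3.31, 2.89 and 3.33 in double mutants, a difference of 4.92 (standard error 1.21, adjusted p = 0.0138). All 9 other libraries lay well below the double mutants for both genes, which were chosen after their values were seen. *mex1*, a marker of midgut enterocytes, was at 25.7, 21 and 19.9 CPM in *Gpdh1* heterozygotes, 35.8, 34.6 and 37.2 in *Gpdh1* mutants, 28.7, 24.7 and 24.8 in double heterozygotes and 91.4, 86.9 and 92.2 in double mutants, a difference of 1.10 (standard error 0.129, adjusted p = 0.000291). Of 10 midgut markers tested, *mex1*, *alphaTry* and the transcription factor gene *GATAe* were higher and none was lower, with a median of 0.46, and their summed level was 383 to 559 CPM in *Gpdh1* heterozygotes, 997 to 1120 in *Gpdh1* mutants, 644 to 745 in double heterozygotes and 2668 to 2770 in double mutants, with no marker at a group mean of 0. These markers rose with the digestion genes in the same libraries, although *alphaTry* belongs to both the midgut and the gut protease list. The part of a larger gut share in the digestion result was not tested. *Treh*, the trehalase gene, was higher as well (0.82, adjusted p = 0.000252), with means of 153, 151, 139.7 and 244 CPM.

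New-glue genes of the salivary gland rose in double mutants only. *ng3* was at 29.5, 21.3 and 23.1 CPM in *Gpdh1* heterozygotes, 17.5, 20.7 and 34.6 in *Gpdh1* mutants, 15.6, 18.7 and 16.5 in double heterozygotes and 141, 149 and 146 in double mutants, a difference of 3.12 (standard error 0.304, adjusted p = 0.000112). *ng2* (2.14) and *ng1* (1.92), which lie beside it on the X chromosome and resemble it in sequence, had double mutant means of 62.9 ± 3.61 CPM and 43.3 ± 1.59 CPM against 21.3 ± 1.91 CPM and 13.2 ± 2.65 CPM in double heterozygotes (SD, n = 3). With *CG14265* (2.35) they form an unbroken run of 4 tested genes, all higher and all with double mutants apart. The salivary gland list, which holds these 3 genes, had 3 of 7 tested members higher and *CrebA* lower (-0.59), and summed to 181 to 215 CPM in *Gpdh1* heterozygotes, 181 to 231 in *Gpdh1* mutants, 171 to 190.4 in double heterozygotes and 359 to 377 in double mutants.

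Among enzymes that modify and clear small molecules, cytochrome P450 genes were more often higher than lower. Of 72 such genes tested, 26 were higher and 9 lower (27 and 13 without double heterozygote replicate 2), with a median of 0.29. *Cyp6g1*, known for insecticide resistance, was at 14.7, 7.65 and 8.49 CPM in *Gpdh1* heterozygotes, 9.53, 11.7 and 8.6 in *Gpdh1* mutants, 7.26, 8.18 and 6.87 in double heterozygotes and 45.3, 43.7 and 45.7 in double mutants, a difference of 2.64 (standard error 0.291, adjusted p = 0.00021), and its exons overlap *Cyp6g2* on the other strand. *Cyp309a1* had means of 32.6, 51.8, 29.3 and 118 CPM (1.34), *Cyp4p2* of 14, 10.7, 13.5 and 27.9 CPM (1.43) and *Cyp9f2* of 37.9, 66.2, 43.6 and 146 CPM (0.93), all with double mutants apart. *Cyp6a23*, in contrast, was lower (-1.07, adjusted p = 1.67e-05) through *Gpdh1* mutants, at 47.6, 43 and 46 CPM in *Gpdh1* heterozygotes, 101, 96.7 and 102 in *Gpdh1* mutants, 52.6, 48.8 and 48.7 in double heterozygotes and 51.8, 53 and 52 in double mutants. Its rise in *Gpdh1* mutants had no counterpart in double mutants, which lay near both controls. Of 34 glutathione S-transferases tested, 7 were higher and 4 lower (median 0.10), against 12.0% and 13.5% of all genes. *GstE1*, with exons that overlap *GstE10* on the other strand, was at 313, 231 and 266 CPM in *Gpdh1* heterozygotes, 395, 316 and 395 in *Gpdh1* mutants, 219.5, 204 and 257 in double heterozygotes and 779, 826 and 785 in double mutants, a difference of 1.37 (standard error 0.178, adjusted p = 0.0005), whereas *GstD2* (-0.89) and *GstE9* (-0.79) rose more in *Gpdh1* mutants, by 1.95 and 1.64 against 1.06 and 0.86 in double mutants. *Gclc*, the catalytic subunit of the enzyme that starts glutathione synthesis, had means of 34.1, 49.3, 37.7 and 105 CPM (0.95, adjusted p = 0.000401), and *Gclm*, its modifier, of 38.5, 40.2, 48.9 and 67.1 CPM (0.39, adjusted p = 0.0342, and 0.0545 without replicate 2). Of 31 UDP-glycosyltransferases tested, 8 were higher and 7 lower (median -0.15), from *Ugt303B3* at 1.56 to *Ugt35B1* at -2.46, both with double mutants apart.

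**Figure D3:**
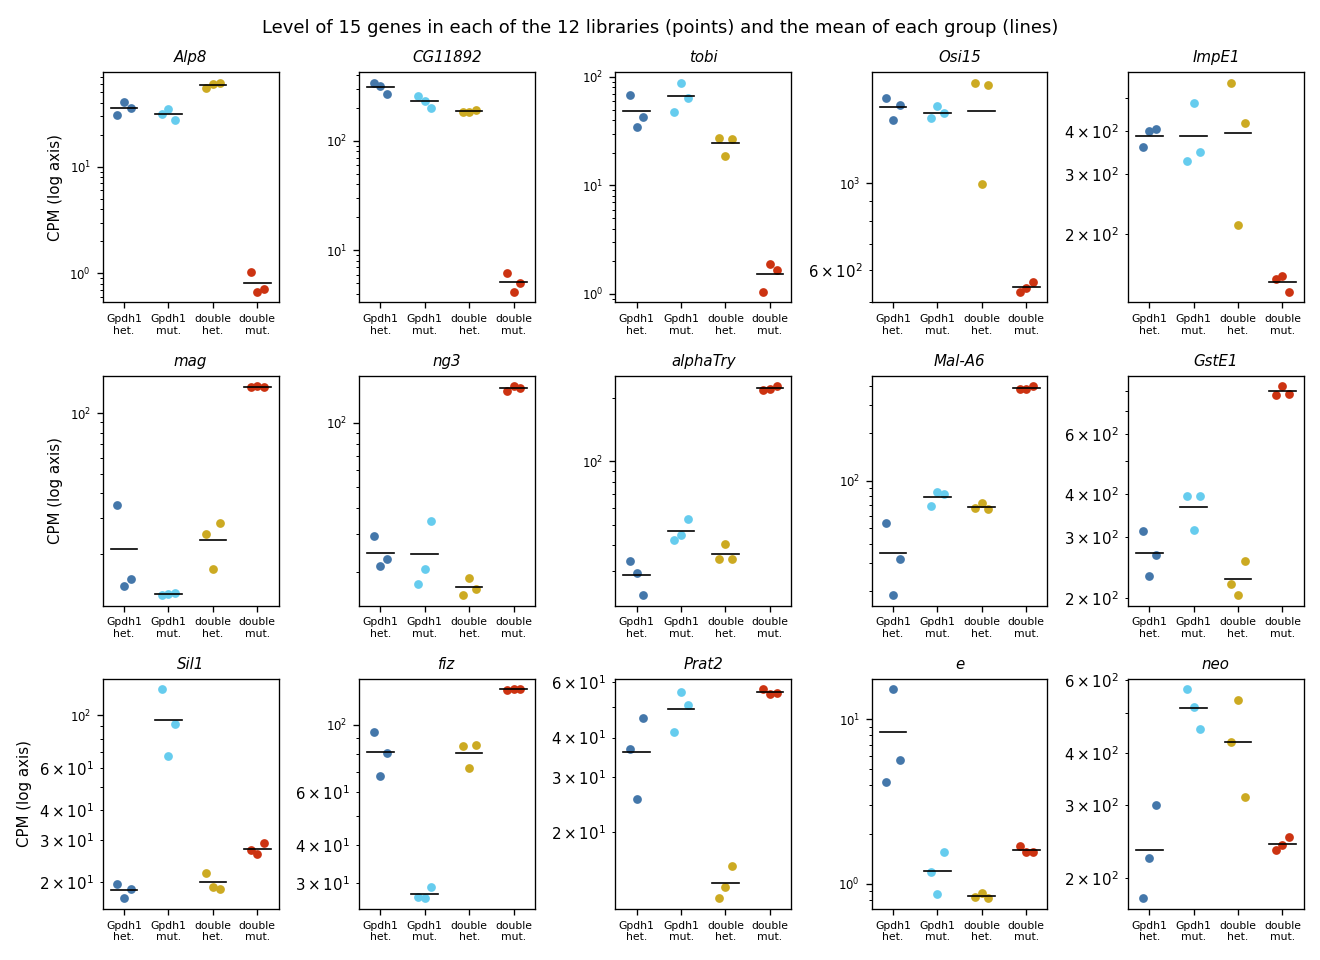
CPM of 15 genes on log axes, 1 panel each, with 1 point per library and a line at the group mean of 3 libraries. In the first and second rows double mutants lie below or above the other 9 libraries, while in the third row *Sil1* and *fiz* are set by *Gpdh1* mutants, *Prat2* by double heterozygotes and *e* by *Gpdh1* heterozygotes, and *neo* has no single group apart.

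Secreted growth regulators held 8 higher and 2 lower genes of 33 tested, against 12.0% and 13.5% of all genes, with a median of 0.28. The levels that drove them differed. *CCHa2*, a nutrient-dependent peptide hormone of the fat body and gut that acts on insulin-producing cells, was at 50.5, 52 and 46.1 CPM in *Gpdh1* heterozygotes, 22.9, 34.3 and 32.7 in *Gpdh1* mutants, 69.3, 60.7 and 62.5 in double heterozygotes and 94.3, 97.9 and 82.3 in double mutants, a difference of 1.24 (standard error 0.186, adjusted p = 0.00105). It went down in *Gpdh1* mutants and up in double mutants. *Ilp6*, the insulin-like peptide of the fat body, had means of 5.26, 5.53, 4.17 and 7.62 CPM (0.80, adjusted p = 0.00276), *Dh31*, a gut and brain peptide hormone, of 6.31, 8.09, 6.52 and 14.7 CPM (0.82, adjusted p = 0.000331) and *NLaz*, a lipocalin that represses insulin signalling, of 2.38, 2.03, 1.93 and 3.6 CPM (1.11), each with double mutants apart and above. The lower genes were *Ilp5*, an insulin-like peptide of the brain, with means of 5.25, 2.42, 3.48 and 0.948 CPM (-0.75, adjusted p = 0.0141) and *ImpL2*, a binding protein that holds insulin-like peptides, with means of 123, 114, 113 and 72.7 CPM (-0.51, adjusted p = 0.00218). *upd3*, the cytokine ligand of the JAK/STAT pathway, was at 1.21, 0.755 and 0.858 CPM in *Gpdh1* heterozygotes, 0.847, 1.07 and 1.1 in *Gpdh1* mutants, 0.456, 0.38 and 0.43 in double heterozygotes and 0.97, 0.988 and 1.32 in double mutants, a difference of 1.27 (standard error 0.326, adjusted p = 0.0166). All of these values lie near or below 1 CPM, double heterozygotes were the low group, and double mutants overlapped both *Gpdh1* groups. *daw*, an activin-like ligand, had means of 13.5, 23.2, 14.6 and 31.1 CPM and effects of 0.79 in *Gpdh1* mutants and 1.08 in double mutants, and their difference of 0.30 (standard error 0.261) missed the threshold (adjusted p = 0.44), as did that of the peptidoglycan recognition protein *PGRP-SC2* (0.17, adjusted p = 0.67). *PGRP-LA*, of the same family, was at 61.9, 54.7 and 53.5 CPM in *Gpdh1* heterozygotes, 49.2, 51.2 and 49.3 in *Gpdh1* mutants, 54.4, 23.1 and 56.9 in double heterozygotes and 22, 21.6 and 20.5 in double mutants. Its double mutant libraries were the lowest of the 12, with double heterozygote replicate 2 just above them, and the difference of -0.88 (adjusted p = 0.0925) became -1.20 (adjusted p = 1.88e-05) without that replicate. *REPTOR-BP*, a partner of the starvation factor REPTOR, was higher, with means of 9.98, 14.2, 7.54 and 22 CPM (1.03, adjusted p = 0.00232).

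Takeout-related genes, secreted proteins named for binding of juvenile hormone or circadian feeding, divided in the same way and were listed after their values had been seen. Of 11 tested, 4 were higher and 1 lower (2 lower without double heterozygote replicate 2). *Jhbp7* was at 3.68, 75.5 and 12.2 CPM in *Gpdh1* heterozygotes, 8.3, 6.47 and 7.26 in *Gpdh1* mutants, 13.6, 32 and 11.6 in double heterozygotes and 62.2, 60.4 and 66.8 in double mutants, a difference of 3.76 (standard error 1.14, adjusted p = 0.0343), and neither mutant effect alone passed the test. The libraries of the *Gpdh1* heterozygotes spread widely, and 1 of them exceeded the double mutants. *Jhbp2*, the lower member, had means of 112, 122, 132 and 46 CPM (-1.65, adjusted p = 0.000605), with double mutants apart. *Fst*, an abundant gene named for a frost response, was also higher at 785, 769 and 673 CPM in *Gpdh1* heterozygotes, 1077, 1080 and 1028 in *Gpdh1* mutants, 866, 855 and 786 in double heterozygotes and 2530, 2587 and 2439 in double mutants, a difference of 1.08 (standard error 0.0939, adjusted p = 7.6e-05), chosen after its values were seen.

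Hemocyte genes were lower in part. *PPO2*, a prophenoloxidase of the crystal cells, was at 34.7, 53 and 40.1 CPM in *Gpdh1* heterozygotes, 52.8, 51.5 and 51 in *Gpdh1* mutants, 36.9, 59 and 53.8 in double heterozygotes and 22.7, 25.1 and 25.2 in double mutants, a difference of -1.32 (standard error 0.245, adjusted p = 0.00326). *PPO1* had means of 46.8, 53.2, 46.3 and 26.1 CPM (-1.02, adjusted p = 0.0043, and -0.87 without double heterozygote replicate 2), and *Hml*, the hemolectin of plasmatocytes, of 86.4, 70.3, 86.8 and 43.7 CPM (-0.69, adjusted p = 0.00034). Double mutants were the low group in all 3, yet *crq* (0.58), *NimC1* (0.66) and *NimB4* (0.81), scavenger receptors and a secreted relative, were higher, so that of 13 hemocyte markers tested 6 were lower and 3 higher. The list summed to 3028 to 3246 CPM in *Gpdh1* heterozygotes, 2603 to 3273 in *Gpdh1* mutants, 3462 to 3685 in double heterozygotes and 2525 to 2620 in double mutants, with no marker at a group mean of 0, and the part of hemocyte number was not tested. Of 25 antimicrobial peptide genes tested, only *BomS6* was higher, with means of 3.51, 4.53, 1.15 and 18.6 CPM (3.57, adjusted p = 0.0267), and none was lower (1 lower without double heterozygote replicate 2). The median difference was -1.82 (0.03 without that replicate). The list summed to 14.1 to 263 CPM in *Gpdh1* heterozygotes, 138 to 1007 in *Gpdh1* mutants, 11.3 to 92.9 in double heterozygotes and 125 to 135 in double mutants. With this spread, few calls do not show equal effects.

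Few respiratory chain genes passed the test of the difference. Over all genes 12.0% were higher and 13.5% lower. TCA cycle, NADH shuttle and lipid synthesis genes exceeded the lower share, and glycolysis genes the higher share, in short lists. Of 64 respiratory chain genes tested, 59 were lower in double mutants (median effect -0.36) and 56 in *Gpdh1* mutants (median effect -0.32), against 27.3% and 20.9% of all genes, and the difference was lower for 2 and higher for none. The more abundant of the 2 was *Cyt-c-p*, cytochrome c, with means of 587, 548, 732 and 438 CPM (-0.64, adjusted p = 0.000511). Of 22 TCA cycle genes tested, 5 were lower and 1 higher (median -0.11), and *Idh*, the isocitrate dehydrogenase that makes NADPH, was at 1032, 945 and 963 CPM in *Gpdh1* heterozygotes, 952, 1107 and 1007 in *Gpdh1* mutants, 1202, 1049 and 1169 in double heterozygotes and 723, 721 and 743 in double mutants, a difference of -0.71 (standard error 0.10, adjusted p = 0.000812). Its 3 double mutant libraries lay below the other 9. Of 11 glycolysis genes tested, *Eno* (0.28) and *Gapdh1* (0.35) were higher, and among 8 genes of the NADH shuttles *Gpo1* (-0.72), the mitochondrial partner of Gpdh1, and *Men* (-0.48), the malic enzyme, were lower. Both were raised in each mutant, *Gpo1* by 1.61 and 0.89 and *Men* by 0.87 and 0.40, and the rise was smaller in double mutants. *Gpo1* had means of 217, 663, 313 and 580 CPM. Its control groups differed by 0.52 (adjusted p = 0.00548), while double mutants over *Gpdh1* mutants missed the threshold (-0.19, adjusted p = 0.17). *Men* had means of 680, 1247, 669 and 882 CPM, with *Gpdh1* mutants apart and above. Of 15 lipid synthesis genes tested, 3 were lower and 1 higher. *FASN1*, the fatty acid synthase, was at 920.5, 1044 and 562 CPM in *Gpdh1* heterozygotes, 2538, 2836 and 2952 in *Gpdh1* mutants, 1637, 1509 and 1603 in double heterozygotes and 2482, 2476 and 2480 in double mutants, a difference of -1.07 (standard error 0.244, adjusted p = 0.00929). Both mutants reached similar levels of *FASN1*, and the difference came from the *Gpdh1* heterozygotes, which were below the double heterozygotes. None of 15 muscle genes (1 without double heterozygote replicate 2) and none of 6 pentose phosphate genes tested passed, and of 88 ribosomal protein genes 4 were higher and 2 lower (2 and 2 without that replicate), each a smaller share than over all genes.

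Where *Gpdh1* mutants stood apart, as for *Sil1*, *ninaD*, *phr*, *fiz*, *LysB* and *tim*, genes changed in *Gpdh1* mutants and changed less, or in the opposite direction, in double mutants. Among the called lysozymes below, only *LysB* had *Gpdh1* mutants apart. *Sil1* on 3R was at 19.6, 17 and 18.6 CPM in *Gpdh1* heterozygotes, 129, 67.7 and 91.8 in *Gpdh1* mutants, 21.9, 19.1 and 18.6 in double heterozygotes and 27.3, 26.2 and 29.1 in double mutants, a difference of -1.91 (standard error 0.263, adjusted p = 0.000655). Its 3 *Gpdh1* mutant libraries lay far above the other 9. *ninaD*, a scavenger receptor for carotenoid uptake, had means of 5.75, 22.3, 4.98 and 7.34 CPM (-1.38, adjusted p = 0.0386), and *phr*, a photolyase gene that overlaps *Prosalpha1* on the other strand, of 1.95, 12.7, 2.14 and 2.77 CPM (-2.34, adjusted p = 0.000102), again with *Gpdh1* mutants alone high. In the other direction, *fiz*, an oxidoreductase gene known from studies of larval malnutrition, was at 94.8, 67.9 and 80.3 CPM in *Gpdh1* heterozygotes, 27.1, 26.8 and 29.2 in *Gpdh1* mutants, 84.9, 72 and 85.7 in double heterozygotes and 130.0, 131 and 131 in double mutants, a difference of 2.24 (standard error 0.153, adjusted p = 1.72e-05). *Gpdh1* mutants held the lowest level of *fiz* and double mutants the highest, with both controls in between. *LysB*, a gut lysozyme gene with close copies, had means of 125, 25.4, 286 and 201 CPM (1.79, adjusted p = 0.0123), and of 5 lysozymes tested *LysD* (1.26, adjusted p = 0.0374, and 0.0543 without double heterozygote replicate 2) and *LysS* (1.11) were also higher and *LysP* (-3.85), under 1 CPM in every group, lower. The clock gene *tim* was at 4.49, 4.33 and 5.02 CPM in *Gpdh1* heterozygotes, 1.69, 2.72 and 2.25 in *Gpdh1* mutants, 4.06, 3.69 and 4.3 in double heterozygotes and 6.29, 5.61 and 6.65 in double mutants, a difference of 1.68 (standard error 0.206, adjusted p = 0.00035), and *vri*, another clock gene, had means of 18.1, 51.8, 39.3 and 28.2 CPM (-2.0, adjusted p = 0.00937). *Gpdh1* mutants held the lowest level of *tim* and the highest mean of *vri*, for which no single group stood apart. Double heterozygote replicate 2 was the highest *vri* library, at 61.1 CPM against 60.9 in *Gpdh1* mutant replicate 1. Without double heterozygote replicate 2 the *vri* difference was -1.53. Of 6 clock genes tested, listed after their values were seen, 1 was higher and 2 lower.

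Double heterozygotes set the difference of a smaller group. *Prat2*, which encodes the enzyme of the first step of purine synthesis, was at 36.7, 25.5 and 46.1 CPM in *Gpdh1* heterozygotes, 41.5, 55.8 and 50.7 in *Gpdh1* mutants, 12.4, 13.4 and 15.7 in double heterozygotes and 56.9, 55.1 and 55.5 in double mutants, a difference of 1.57 (standard error 0.259, adjusted p = 0.00183). Its double heterozygote libraries lay below the other 9, and double mutants were close to *Gpdh1* mutants, beside a double mutant effect of 2.02 (difference 1.54 without replicate 2). *kel*, the kelch gene of actin-rich ring canals, had means of 67.8, 43.6, 20.1 and 43.9 CPM (1.77, and 1.61 without replicate 2, adjusted p = 0.00264), and *atilla*, a surface protein known from lamellocytes, of 97.6, 57.6, 32.1 and 54.2 CPM (1.52, and 1.29 without it, adjusted p = 0.00602). *bnb*, with double heterozygotes above, had means of 335, 359, 569 and 299 CPM (-1.03, adjusted p = 0.00994, and -0.78 without replicate 2).

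*Gpdh1* heterozygotes set the difference of many cuticle genes. Of 107 cuticle proteins tested, 31 were higher and 5 lower, with a median of 0.88, and leaving out double heterozygote replicate 2 changed these counts to 41 and 17. In the comparison of the control groups, 69 of them were lower in double heterozygotes than in *Gpdh1* heterozygotes, against 12.3% of all genes, and 52 were lower in *Gpdh1* mutants than in *Gpdh1* heterozygotes, against 20.9% of all genes. The list summed to 34934 to 48143 CPM in *Gpdh1* heterozygotes, 17059 to 18967 in *Gpdh1* mutants, 10367 to 19707 in double heterozygotes and 12910 to 13483 in double mutants. *Cpr47Eg*, of the chitin-binding CPR family, was at 1237, 2686 and 1457 CPM in *Gpdh1* heterozygotes, 279, 355 and 398 in *Gpdh1* mutants, 119, 172 and 284 in double heterozygotes and 474, 465 and 511 in double mutants, a difference of 3.72 (standard error 0.474, adjusted p = 0.000448). *Gpdh1* heterozygotes held several times the level of the other 3 groups, and double mutants exceeded double heterozygotes. *Cpr100A* (3.51) and *Lcp9* (3.27) followed with means of 68.8, 13.7, 6.9 and 15.5 CPM and 76.2, 8.6, 2.84 and 3.05 CPM, whereas *Lcp4* was set by *Gpdh1* mutants, with means of 877, 252, 639 and 712 CPM (1.96). The lower members were few and included *Cpr65Eb* (-1.53) with double mutants apart and *Cpr47Eb* (-1.87, adjusted p = 0.0375, and -1.35 with adjusted p = 0.0609 without replicate 2) with *Gpdh1* heterozygotes apart and below. Enzymes that tan the cuticle, listed after their values were seen, had 4 of 6 tested members higher and none lower (1 lower without replicate 2), the 4 with *Gpdh1* heterozygotes apart. *e*, ebony, the N-beta-alanyl-dopamine synthase, was at 4.13, 15.2 and 5.62 CPM in *Gpdh1* heterozygotes, 1.19, 0.865 and 1.56 in *Gpdh1* mutants, 0.83, 0.875 and 0.816 in double heterozygotes and 1.69, 1.55 and 1.56 in double mutants, a difference of 3.70 (standard error 0.701, adjusted p = 0.00359). *ple*, the tyrosine hydroxylase, had means of 81.8, 36.1, 22.9 and 38.5 CPM (1.93, adjusted p = 0.00327) and *Ddc*, the dopa decarboxylase, of 77.4, 26.8, 15.3 and 16 CPM (1.60, adjusted p = 0.0244), the second overlapping *CG10561* on the other strand. Outside the cuticle, *Uro*, the urate oxidase of the Malpighian tubule, was at 362, 329 and 294 CPM in *Gpdh1* heterozygotes, 86.9, 95.2 and 107 in *Gpdh1* mutants, 206, 123 and 177 in double heterozygotes and 164, 169.9 and 174 in double mutants, a difference of 1.78 (standard error 0.225, adjusted p = 0.000418), again with *Gpdh1* heterozygotes alone high, and of 36 chitin metabolism genes tested 12 were higher and 2 lower (11 and 8 without double heterozygote replicate 2).

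**Figure D4:**
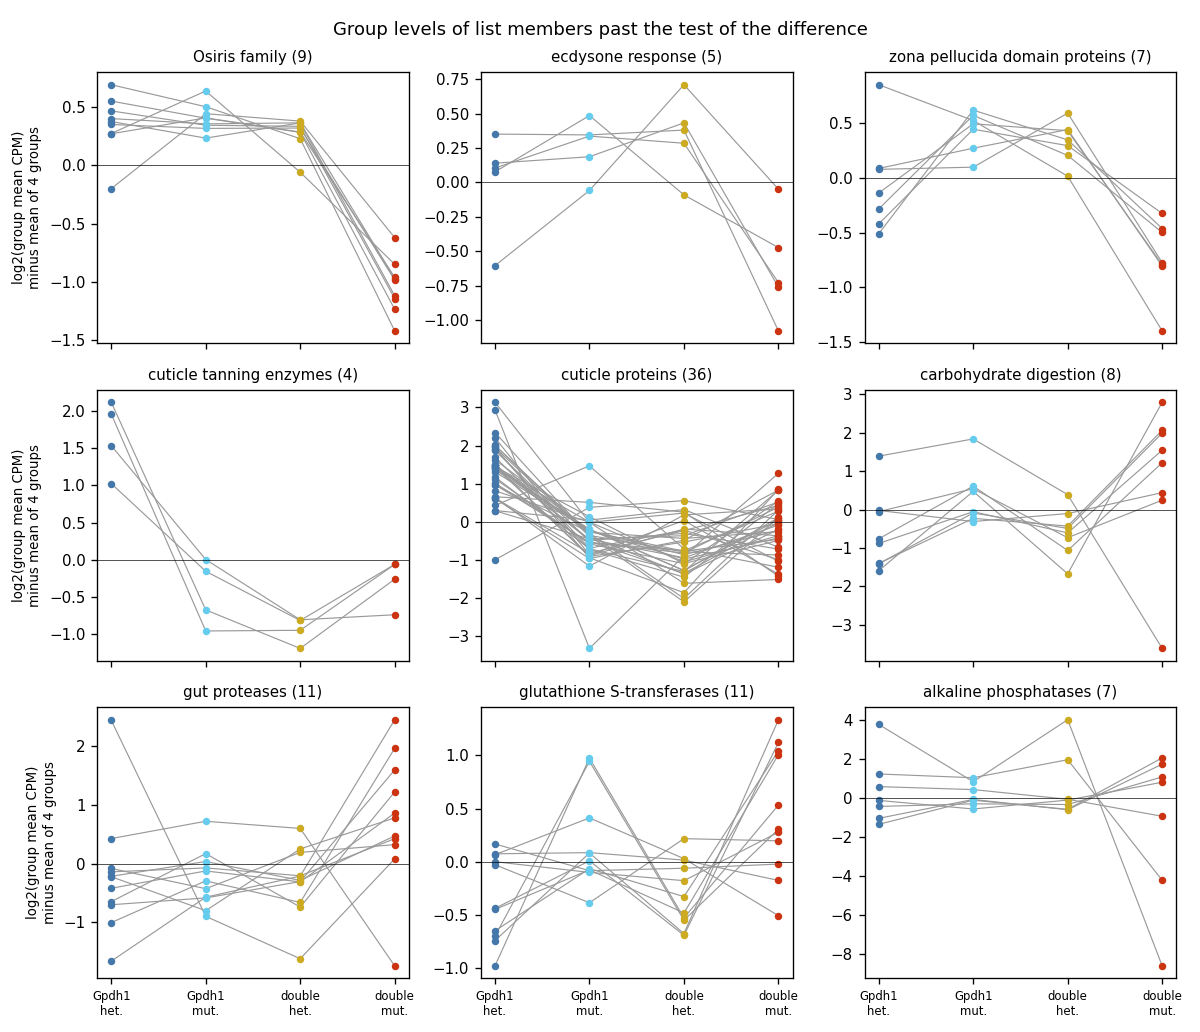
Each grey line joins the 4 group means of 1 list member past the test of the difference, as log2 CPM minus the mean of the 4 groups (y axis), and the number of members is given above each of the 9 panels. Osiris members are lowest in double mutants, most digestive genes apart from *tobi*, *Mal-B2*, *Jon44E* and *Try29F* are highest there, and most cuticle proteins and all 4 tanning enzymes are highest in *Gpdh1* heterozygotes. Means of *Alp7* in double mutants rest on 2 counts.

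Several of the largest fitted differences belonged to genes in clusters on 3L that were present in *Gpdh1* heterozygotes and double mutants and almost absent from the other 2 groups. *CG14572* (3L:21741534-21742441) was at 2.83, 30.8 and 5.45 CPM in *Gpdh1* heterozygotes, 0.0424, 0.124 and 0.0865 in *Gpdh1* mutants, 0, 0.0761 and 0 in double heterozygotes and 5.53, 4.76 and 6.21 in double mutants. The 3 *Gpdh1* heterozygote libraries varied widely, double heterozygotes held 2 counts in all against 472 in double mutants, 203-fold lower (95% counting interval 55.9 to 1682), and the opposite order held between *Gpdh1* mutants (6 counts) and their control (801 counts). *Lcp3*, a cuticle protein gene on 2R, was also higher in *Gpdh1* heterozygotes and double mutants than in the other 2 groups. It was at 29.6, 335 and 83.4 CPM in *Gpdh1* heterozygotes, 1.69, 0.742 and 3.46 in *Gpdh1* mutants, 7.92, 15.5 and 8.21 in double heterozygotes and 46.7, 45.8 and 49.2 in double mutants, a difference of 8.41 (standard error 1.16, adjusted p = 0.000679). Its *Gpdh1* mutant libraries were the lowest of the 12. *TwdlP* (5.60), of the Tweedle cuticle family, was high in the same 2 groups, with means of 147, 19.8, 10.5 and 68.8 CPM. *TwdlN* (4.92), of the same family, was highest in *Gpdh1* heterozygotes and lowest in double heterozygotes, with both mutants between, at means of 593, 90.9, 27.4 and 127 CPM. *Obp56d*, an odorant-binding protein gene, was at 816, 1325 and 918 CPM in *Gpdh1* heterozygotes, 167, 249 and 222 in *Gpdh1* mutants, 23.5, 12.7 and 138 in double heterozygotes and 147, 138 and 151 in double mutants, a difference of 3.59 (standard error 0.951, adjusted p = 0.0193).

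Called genes were spread over the arms at between 6.53% and 9.23% of tested genes on the 5 large ones, highest on 3L, where 137 were higher and 62 lower. Within 1 Mb of *Ldh* on 3L, 22 of 166 tested genes were called (13.3%, against 8.84% on the rest of the arm), and within 1 Mb of *Gpdh1* on 2L 15 of 207 were (7.25%, against 7.6%). The *Ldh* window includes 4 neighbouring cuticle genes called together, around *Lcp65Ag1* to *Lcp65Ag3* (3L:6130386-6135274). In all, 9 unbroken runs of 4 or more neighbouring tested genes were called in 1 direction, 7 higher and 2 lower, with 44 genes in all. They held *Lcp1* to *Lcp4* on 2R, 4 genes around *Lcp65Ag1* to *Lcp65Ag3* on 3L, 4 clusters of genes without names, apart from *825-Oak*, on 3L, the new-glue run on the X chromosome, and 1 run each on 2R and 3R of lower genes. The 3R run held 7 genes from *CG42812* to *CG5768*, with differences between -1.70 and -1.13, of which 3 had *Gpdh1* mutants apart and above, 2 double mutants apart and below and 2 no single group apart. *Lcp65Ag1* to *Lcp65Ag3* are close copies, and the counting may divide their reads.

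**Figure D5:**
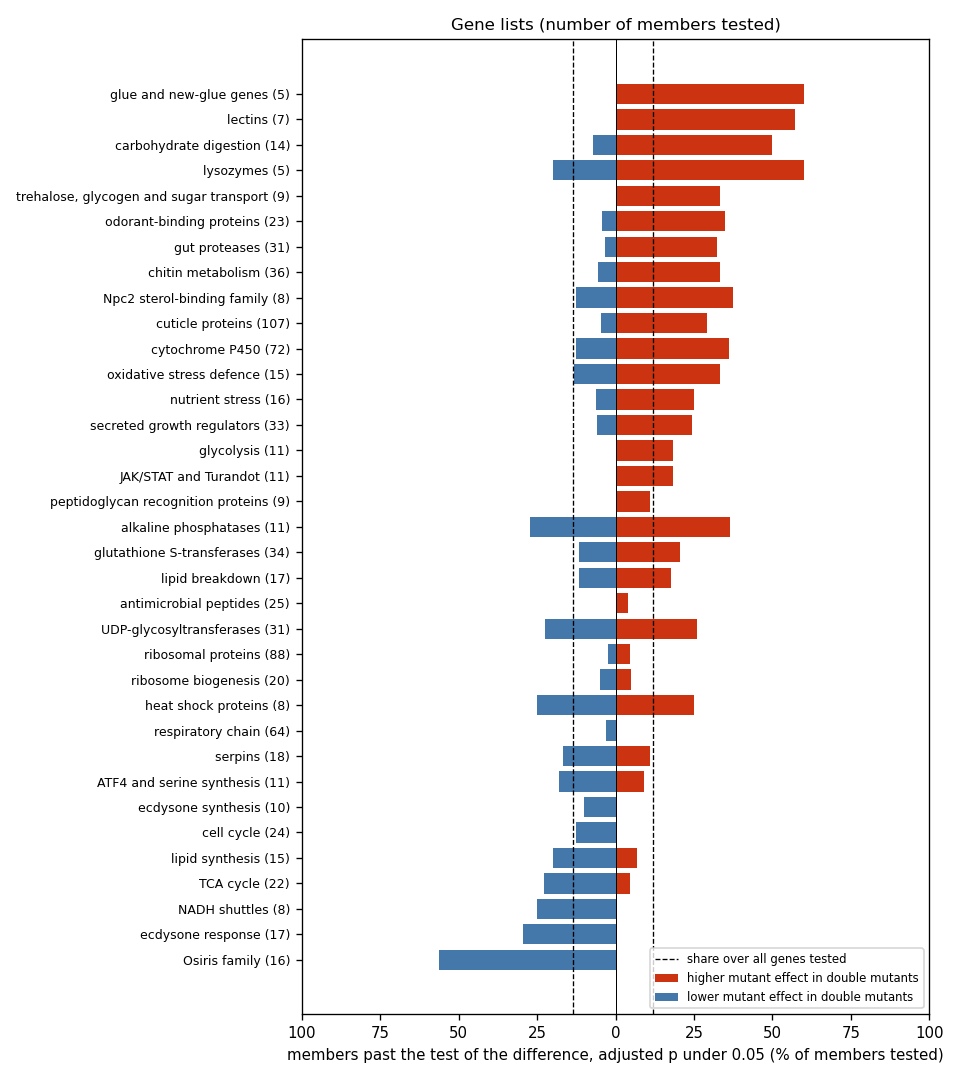
Bars give the share of tested members (x axis, in percent, number tested in brackets) of pathway and family lists with at least 1 member past the test, without the lists made after values were seen, that were higher (red, to the right) or lower (blue, to the left) at an adjusted p under 0.05, and dashed lines give the shares over all genes, 12.0% and 13.5%. Among the lists plotted, glue, lysozyme, lectin and carbohydrate digestion genes extend furthest to the right and the Osiris family furthest to the left, where 9 of 16 members were lower.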

How the data were processed

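Per the labels, the authors trimmed reads with cutadapt 1.12, aligned them with HISAT2 2.1.0 and counted them per gene with HTSeq 0.9.0, and deposited unnormalised read counts for 12 libraries. Genome build, annotation and strand setting were not given in the sources used here. HTSeq summary lines were left out, and reads without a gene were 0.737% to 1.04% of all reads. Of 17185 gene IDs, 17059 matched a symbol in BDGP6.54, from which coordinates and overlaps were taken.

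Counts were filtered with filterByExpr (minimum count 10), scaled by TMM and fitted for all 12 libraries with edgeR 4.0.16 (R 4.3.3), 1 coefficient per genotype, without a replicate block. The difference was tested with the quasi-likelihood test, two-sided, with Benjamini-Hochberg adjustment over all genes tested. Log2 CPM used a prior count of 2, and standard errors are those of the fitted log2 difference. On simulated counts for these genes, 90 of 100 differences of 1.5 and 99 of 100 of 3 (log2) were recovered, with 4 false calls. The simulation gave all groups the same spread for a gene and changed double mutants only. It therefore does not give the error rate under the unequal spread of the real groups. Alternatives were RLE scaling, DESeq2 1.42.0, limma 3.58.1 voom with group quality weights, no filter, a strict filter, the replicate block, other limits and leaving out each library. Summing the double mutant libraries was added after seeing the data. Counting intervals cover counting error only.

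Named genes were *Gpdh1*, *Ldh*, *upd3*, *daw*, *PGRP-SC2* and *PGRP-LA*, up to 4 per group apart and direction (at least 5 CPM, libraries not overlapping), the 5 most positive and 5 most negative, up to 3 per list by adjusted p, and members of runs, and other genes named were chosen after their values were seen. The comparison and the gene lists were chosen with earlier results of these data known. List symbols that found no match, such as *Pyk* in the glycolysis list, were left out of the counts.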

Additional observations from a re-analysis of the deposited data

Results flagged for a closer look

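The mutant effect differed between the 2 contrasts for 467 genes in the higher and 364 genes in the lower direction by edgeR's quasi-likelihood test of the difference. For the following genes the 2 effects were also called in opposite directions. Genes higher in the difference were *Try29F* (5.02 on the log2 scale), *Cpr47Eg* (3.72), *Cpr100A* (3.51), *Lcp3* (8.41), *Lcp65Ag1* (2.59), *Lcp65Ag2* (2.72), *Lcp65Ag3* (2.88) and *Edg91* (4.0). Clustered genes without names on 3L were higher by 5.67 (*CG13068*), 9.89 (*CG34248*), 5.77 (*CG13067*), 5.11 (*CG13066*), 3.30 (*CG4962*), 3.30 (*CG4982*), 7.56 (*CG14568*), 8.95 (*CG14573*), 10.04 (*CG14569*) and 14.59 (*CG14572*). *CG14324* was higher by 12.02. *lncRNA:CR44316* was the lower one (-11.27). *CG14572*, *CG34248* and *lncRNA:CR44316* held 3 or fewer counts in some group, so their fitted values are not sizes.

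Reads assigned to no gene made up a larger share in both mutants than in their controls, with a lowest value of 1.001% in *Gpdh1* mutants against a highest of 0.8359% in *Gpdh1* heterozygotes, and a lowest of 0.9444% in double mutants against a highest of 0.8375% in double heterozygotes.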

How the results depend on the processing

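No called gene changed sign under any alternative that tested it. RLE scaling gave 834 calls (813 shared), DESeq2 858 (774), voom 847 (783) and no filter 828 (796). Requiring 10 counts in every library gave 672 calls (646 shared) and left 27 genes with double heterozygotes apart, of 48. Summing the double mutant libraries, added after seeing the data, gave 302 higher and 193 lower genes, with 22 for double heterozygotes, 30 for *Gpdh1* mutants and 56 for *Gpdh1* heterozygotes apart. Without the fold limit these counts were 1307, 1474, 255, 238 and 290, and 1018 genes had double mutants apart. A gap over 1.5 times the range left 27 genes with double heterozygotes and 76 with *Gpdh1* heterozygotes apart. Leaving out 1 library at a time gave 403 to 506 higher and 279 to 489 lower genes, with 279 to 455 for double mutants, 30 to 76 for double heterozygotes, 47 to 67 for *Gpdh1* mutants and 79 to 153 for *Gpdh1* heterozygotes apart. The lower extreme for double heterozygotes came without their replicate 2 and the upper without their replicate 3, and the cause was not tested.

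Replicate numbers did not pair the samples (correlations of deviations -0.222 to 0.151). With the replicate block, 429 genes were higher and 326 lower. Of 114 called genes picked by the naming rules above, 69 were called under every alternative and 45 were lost under at least 1. Genes named here that were chosen after their values were seen are not in this count. The limits are 3 libraries a group, the unequal spread of the groups and genes with few counts.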
